A study of Rattus norvegicus with 42 samples.

Results

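Interleukins and their receptors, leaving out the interleukin-1 (IL-1) genes, were followed in the whole blood of rats after middle cerebral artery occlusion (MCAO) and treatment with tissue plasminogen activator (tPA). The genes were chosen by name. Every probe set that the array annotation gives to a single gene whose symbol is Il and a digit was taken, and Il1a, Il1b, Il1rn, Il1r1, Il1r2, Il1rap and Il7r were left out. The probe set of highest mean over the 42 arrays then stood for its gene. This gave 44 genes of the 14217 genes measured, from 52 probe sets. Of the 44 genes, 15 had a mean of at least 4 on the log2 scale and are called bright here, and the other 29 are called dim. Values are GC-RMA log2 expression values, a scale on which 1 unit is a doubling, and a higher value of 1 probe set than of another is not a higher level of its gene.

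Blood was taken from 42 male Sprague-Dawley rats of 280 to 350 g, in 7 groups of 6. The reperfused-MCAO with tPA group had the artery blocked for 2 hours with a suture, the suture then withdrawn, and tPA at 3 hours after onset. The reperfused-MCAO group had the same occlusion without tPA. The permanent-MCAO with tPA and permanent-MCAO groups kept the suture for the full 24 hours, with tPA at 3 hours and with none. The tPA without MCAO group received the drug alone, the anesthesia group had neither occlusion nor tPA, and the naive group was untreated. The methods describe no group that had the surgery without occlusion. In comparisons of MCAO with the other groups, surgery and occlusion therefore cannot be told apart. The tPA was recombinant human protein given to rats at 3.3 mg per kg by the intraperitoneal route, and all blood was drawn at 24 hours by cardiac puncture under isoflurane. Neither the labels nor the methods say whether the rats given tPA alone were anesthetized for the injection. The groups stand for male rats of 1 strain at 1 time point.

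Interleukins are secreted proteins through which white blood cells signal to each other and to other tissues. Most bind receptors made of a private chain, which recognises the cytokine, and a shared chain, such as the common gamma chain or gp130, and signal through JAK kinases and STAT transcription factors. The IL-17 receptors and the relatives of IL-1 use other adaptors and lead to NF-kappaB. In circulating blood the receptor chains are carried by leukocytes, while many of the cytokines are made only after activation, often in tissue.

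The members with a clear signal in blood were mainly receptor chains. Of 20 receptor chains 10 were bright, of 22 cytokines or cytokine subunits 4 were bright, and of 2 soluble binding proteins 1 was bright. By mean over all 42 arrays the bright members were Il17ra (11.10), Il2rg (10.99), Il10ra (9.52), Il2rb (9.14), Il16 (8.85), Il10rb (8.48), Il6r (8.20), Il6st (7.35), Il22ra2 (7.19), Il4r (7.18), Il18 (7.13), Il27ra (6.75), Il36b (5.41), Il15 (4.87) and Il3ra (4.15). The 29 dim members had means between 1.94 (Il17rc) and 3.85 (Il18bp), and included the T helper cytokines Il2, Il4, Il5, Il13 and Il17f as well as Il6, Il10, Il12a, Il12b and Il23a. In 27 of the 29 no rat reached 4, and in 26 the SD over all 42 rats was below 0.2. Values this low cannot show whether the gene was expressed, so a change of these cytokines was not detectable on these arrays. Bright probe sets made up 34.1% of the members, against 42.6% of all 31042 probe sets tested.

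**Figure D1:**
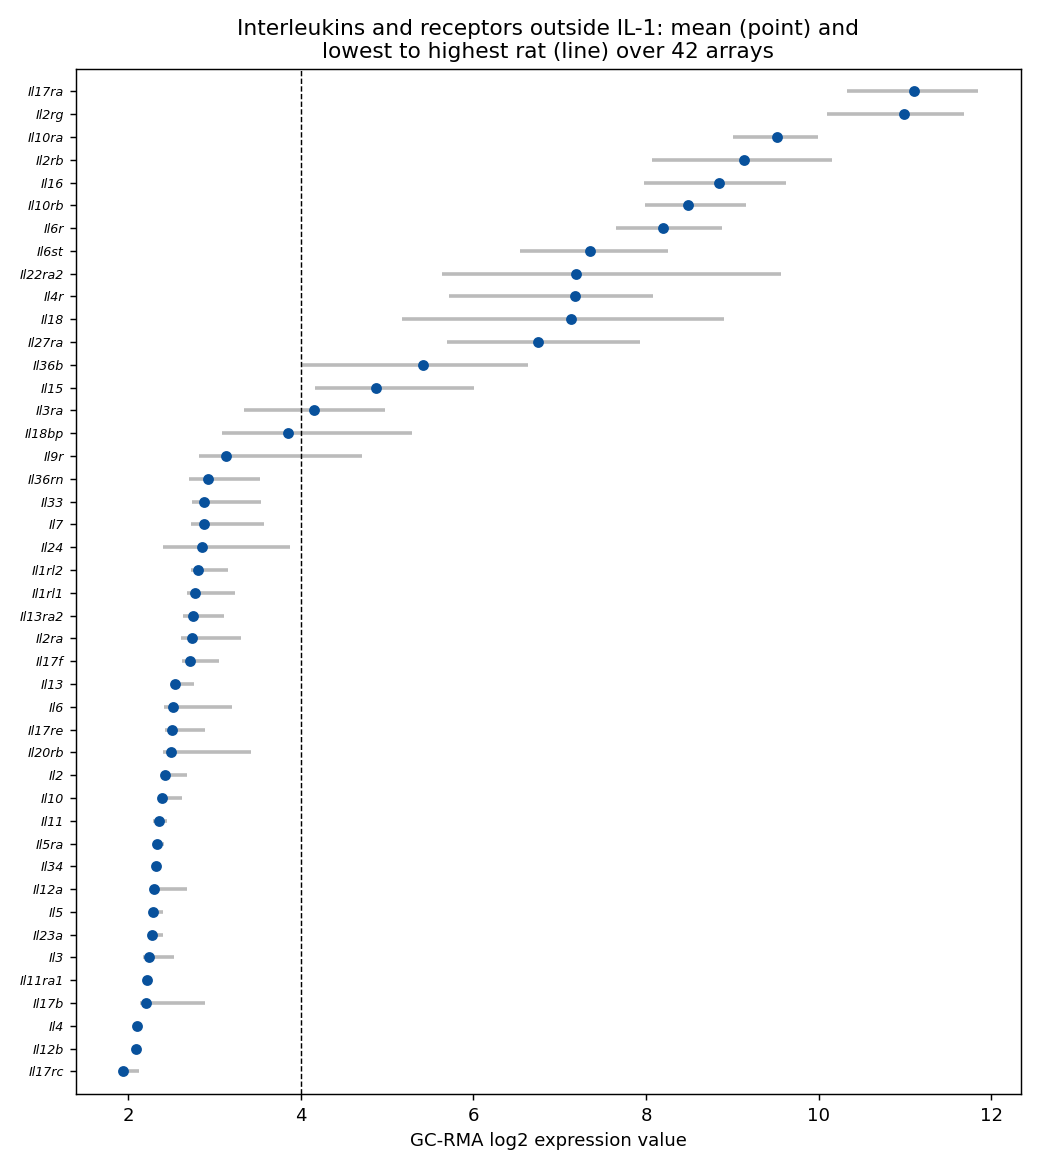
Mean GC-RMA log2 expression value (points, horizontal axis) of each of the 44 genes over 42 arrays, with the lowest to the highest rat as a line and the limit of 4 dashed. The 15 bright members, led by Il17ra at 11.10, lie right of the dashed line, and the means of 29 members lie left of it.

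By role, the common gamma chain group had 4 bright of 9 members (Il2rg, Il2rb, Il4r and Il15), the gp130 group 3 of 6 (Il6r, Il6st and Il27ra), the IL-10 family 3 of 6 (Il10ra, Il10rb and Il22ra2), the IL-17 family 1 of 5 (Il17ra), the IL-18 and IL-36 group 2 of 5 (Il18 and Il36b), and the common beta chain and type 2 group 1 of 8 (Il3ra). Il33 and Il1rl1, also relatives of IL-1, were counted in the type 2 group, and both were dim. The IL-12 and IL-23 subunits had 0 bright of 3. Il16, a chemoattractant that binds CD4, was bright, and Il34, a ligand of the Csf1 receptor, was dim.

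The arrays themselves also differed in their median and in their hybridization control level. The median of each array lay between 3.05 and 3.26. The mean of 14 spiked hybridization control probe sets was 11.16 ± 0.75 in tPA without MCAO (SD, n = 6; lowest rat 9.72), against 12.22 ± 0.22 in anesthesia, and was between 11.94 and 12.17 in the other groups. Most marker genes of blood cells were bright. This held for all 6 listed T cell, neutrophil, monocyte and natural killer (NK) or cytotoxic markers. It also held for all those measured for B cells (3 of 6 listed), platelets (5 of 6) and red cell precursors (5 of 6). Of the 6 basophil and eosinophil markers, 3 were bright. In whole blood, fewer cells of a type and less RNA per cell cannot be told apart.

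Of the 44 members, 9 varied over the 7 groups (moderated F test in limma, Benjamini-Hochberg adjusted p at most 0.05), and all 9 were bright. Over all probe sets the share was 9.87%, and over bright probe sets 20.6%. The smallest adjusted p belonged to Il22ra2 (0.00269), followed by Il27ra (0.00906), Il17ra (0.00976), Il2rb (0.0173), Il6st (0.0176), Il3ra (0.0192), Il16 (0.0327), Il6r (0.0345) and Il36b (0.0408). Of the 15 bright members, 7 had their highest mean in reperfused-MCAO and 6 in tPA without MCAO. Il36b had its highest mean in reperfused-MCAO with tPA and Il15 in naive rats. The anesthesia group held the lowest mean for 7 of the 15, among them Il17ra, Il10ra, Il6r, Il6st, Il22ra2 and Il36b, and 12 of the 15 had a lower mean in anesthesia than in naive rats. Most bright probe sets of the array were lower too: 4774 of 13232 were higher in anesthesia, and the median log2 difference of the 13232 was -0.084. Set against anesthesia, 9375 of the 13232 were higher in tPA without MCAO and 7058 in reperfused-MCAO. How many of all bright probe sets had their highest or lowest mean in each group was not counted.

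Pairs of groups were then compared, each called at p at most 0.01 and a fold of at least 1.2. The comparisons of reperfused-MCAO, permanent-MCAO and tPA without MCAO all used the same 6 anesthesia rats, so their values are not independent of each other.

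After reperfused-MCAO, 7 members were called against anesthesia, all higher: Il22ra2, Il36b, Il17ra, Il2rb, Il3ra, Il6r and Il10ra. Over the whole array 4.09% of all probe sets and 8.73% of bright ones were called higher, and the 7 were all bright, so that 46.7% of the 15 bright members were called. The adjusted p was at most 0.05 for 4 of them (2.11% of all probe sets). The median log2 difference over the 15 was 0.40. After permanent-MCAO, 4 members were called against anesthesia, all higher (Il22ra2, Il36b, Il17ra and Il6r), where 1.77% of all probe sets and 3.90% of bright ones were called higher, and 0 of the 4 had an adjusted p at most 0.05 (0.145% of all probe sets). At an unadjusted p under 0.05, limma gave 5 members in this comparison, all bright, beside 2362 of all 31042 probe sets and 2043 of the 13232 bright ones. The 4 were also called in the reperfused comparison. The effects of the 2 kinds of occlusion were not tested against each other.

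Il22ra2, the soluble receptor that binds IL-22 and keeps it from its cellular receptor, had the largest log2 difference of the members in both comparisons. It was 6.84, 8.60 and 9.56 in reperfused-MCAO (lowest, median and highest rat), against 5.64, 5.85 and 7.12 in anesthesia. Only 1 rat of the 6 with reperfused-MCAO overlapped the anesthesia range. The difference was 2.29 (SE 0.44), a 4.89-fold higher value, with an adjusted p of 0.0256. In permanent-MCAO the rats lay at 7.21, 7.76 and 8.78, all above the highest anesthesia rat. That difference was 1.78 (SE 0.33), or 3.44-fold, with an adjusted p of 0.0722. The gene had a single probe set.

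Il17ra, the shared receptor chain of IL-17A and IL-17F, was the brightest member. It was 11.24, 11.52 and 11.68 in reperfused-MCAO, against 10.33, 10.53 and 11.11 in anesthesia, and the groups did not overlap. The difference was 0.88 (SE 0.12; adjusted p 0.0119). Permanent-MCAO rats were at 10.99, 11.34 and 11.56. Here the ranges met at 1 anesthesia rat of 11.11, and the difference was 0.68 (SE 0.14; adjusted p 0.0979).

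Il6r encodes the private chain of the IL-6 receptor, found on hepatocytes and some leukocytes and also shed in soluble form. Reperfused-MCAO rats were at 8.06, 8.35 and 8.74, against 7.65, 7.71 and 8.12 in anesthesia. The difference was 0.59 (SE 0.11; adjusted p 0.0264), with a slight overlap at the highest anesthesia rat. Permanent-MCAO rats were at 7.94, 8.34 and 8.48, a difference of 0.51 (SE 0.11; adjusted p 0.0934). The anesthesia rats other than the highest lay within 7.65 to 7.82, and the naive rats lay higher, at 7.68, 8.23 and 8.73.

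Il36b encodes IL-36 beta, a relative of IL-1. It was 5.15, 5.88 and 6.64 in reperfused-MCAO, against 4.00, 4.95 and 5.27 in anesthesia, a difference of 1.10 (SE 0.31; adjusted p 0.105). In permanent-MCAO it was 5.25, 5.52 and 6.30, a difference of 0.86 (SE 0.25; adjusted p 0.287). In both comparisons the lowest MCAO rat lay just under the highest anesthesia rat, and the level was among the lowest of the bright members. The call was lost without anesthesia replicate 3 or reperfused-MCAO replicate 1 or 5 in the reperfused comparison (lowest difference 0.94), and without anesthesia replicate 3, 5 or 6 or permanent-MCAO replicate 2, 3 or 5 in the permanent one (lowest 0.70).

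**Figure D2:**
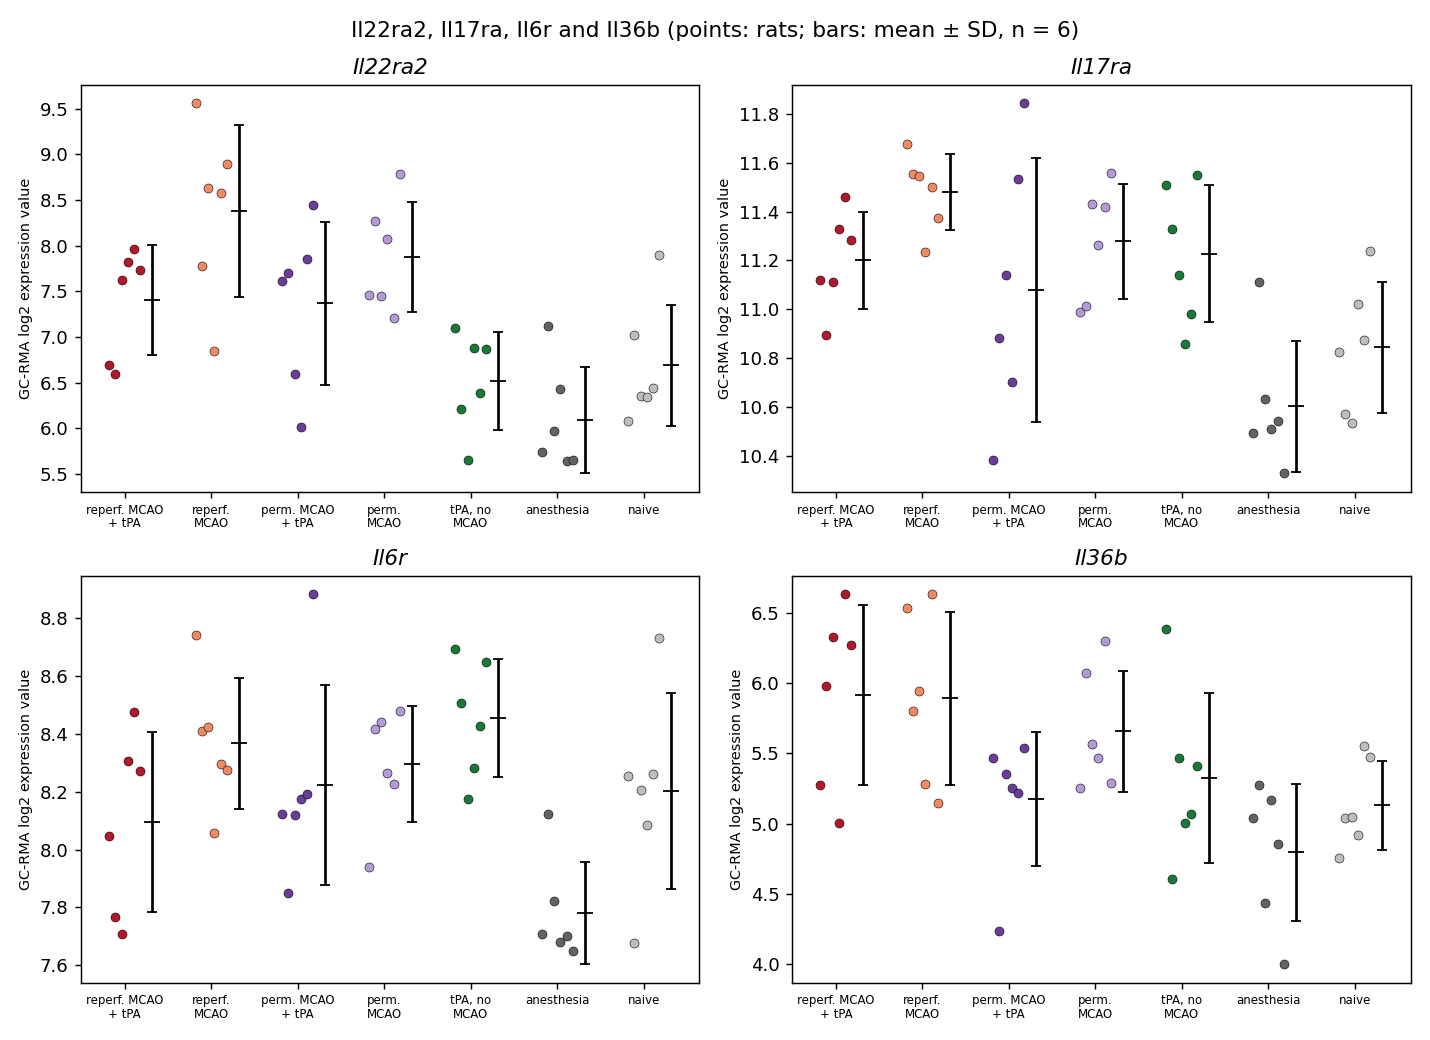
GC-RMA log2 expression values (vertical axes) of Il22ra2, Il17ra, Il6r and Il36b in each rat (points), by group, with bars for mean ± SD (n = 6). Il22ra2 in permanent-MCAO rats (7.21 to 8.78) and Il17ra in reperfused-MCAO rats (11.24 to 11.68) lie above all anesthesia rats (highest 7.12 and 11.11).

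Il10ra, Il2rb and Il3ra were called after reperfused-MCAO and not after permanent-MCAO. Il10ra, the ligand-binding chain of the IL-10 receptor, was 9.62, 9.85 and 9.94 in reperfused-MCAO, against 9.06, 9.31 and 9.48 in anesthesia. The groups did not overlap, and the difference of 0.52 (SE 0.07) had the smallest adjusted p of the members in this comparison, 0.0115. In permanent-MCAO Il10ra averaged 9.48 ± 0.18 (SD, n = 6), with a difference from anesthesia of 0.17. A second Il10ra probe set with a mean of 2.39 was not called.

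Il2rb, the signalling chain shared by the IL-2 and IL-15 receptors and abundant on NK cells, was 9.25, 9.62 and 9.83 in reperfused-MCAO, against 8.40, 8.83 and 9.46 in anesthesia. A single anesthesia rat reached into the reperfused-MCAO range. The difference was 0.68 (SE 0.16; adjusted p 0.0605). Il3ra, the private chain of the IL-3 receptor, was 4.12, 4.58 and 4.97 in reperfused-MCAO, against 3.60, 4.03 and 4.17 in anesthesia, a difference of 0.63 (SE 0.14; adjusted p 0.0513). The lowest reperfused-MCAO rat lay under the highest anesthesia rat, and the values lay close to the limit of 4.

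**Figure D3:**
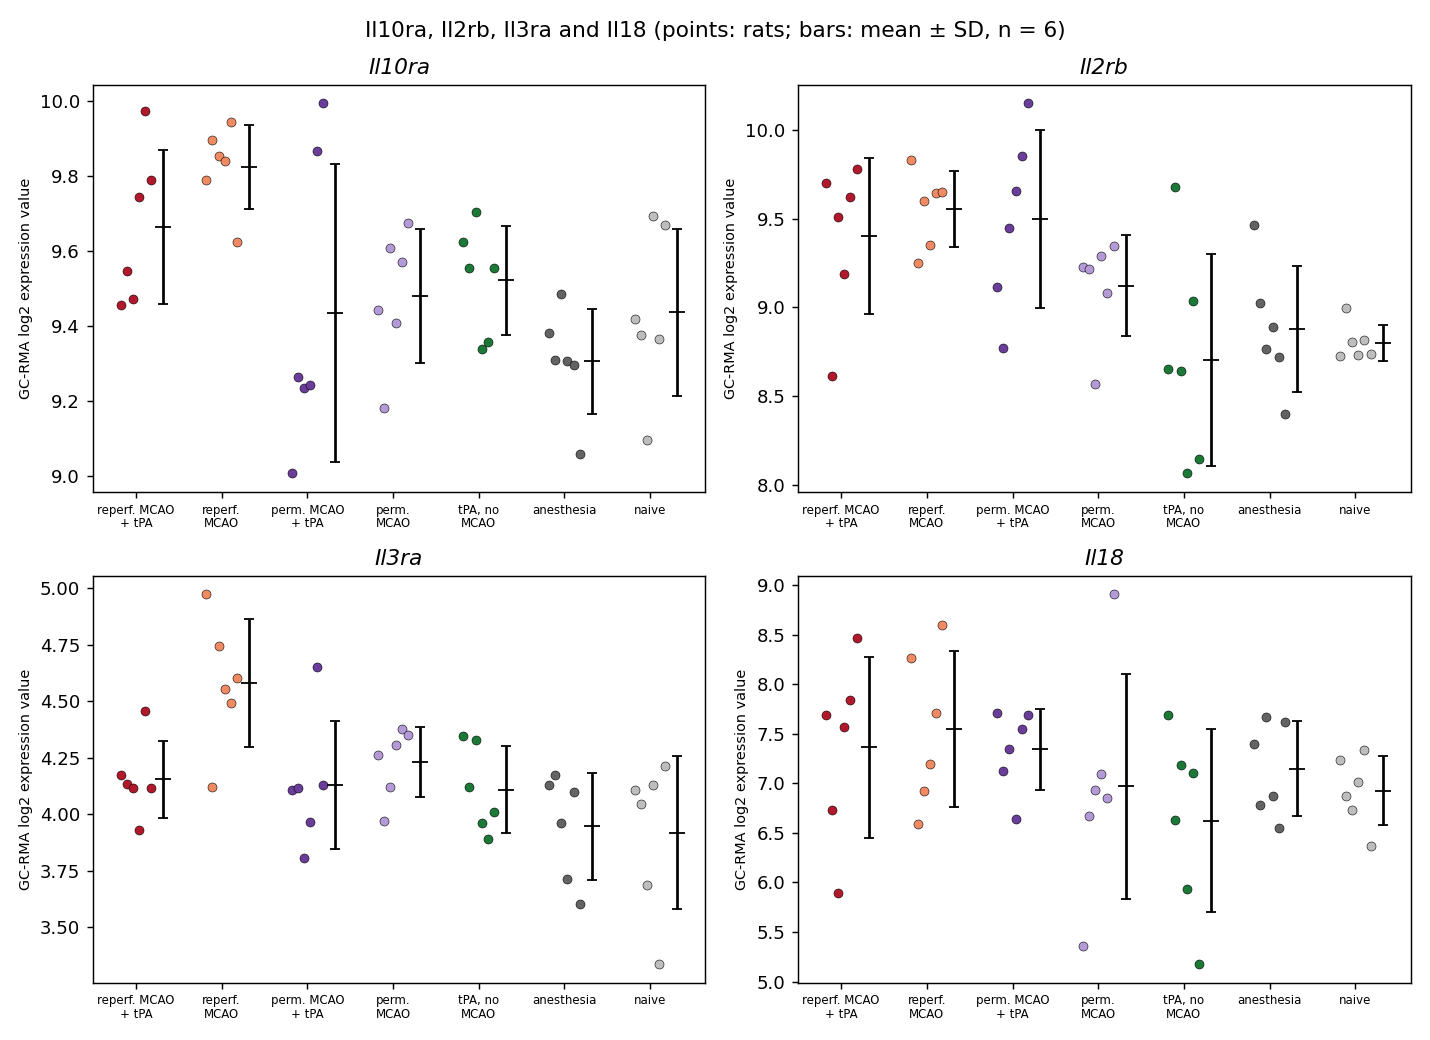
GC-RMA log2 expression values (vertical axes) of Il10ra, Il2rb, Il3ra and Il18 in each rat (points), by group, with bars for mean ± SD (n = 6). Il10ra in reperfused-MCAO rats (9.62 to 9.94) lies above all anesthesia rats (9.06 to 9.48), and Il18 spreads widely within groups.

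Blood cell markers moved in the same comparisons. The level of the neutrophil markers was taken in each rat as the mean log2 value of 6 genes. It was 9.10 to 11.52 in reperfused-MCAO rats (mean 10.18), with 9.17 to 10.40 in permanent-MCAO rats (mean 9.74), against 8.14 to 9.46 in anesthesia (mean 8.93). In the reperfused comparison 2 of 6 neutrophil, 3 of 6 monocyte and 4 of 6 NK or cytotoxic markers were called, all higher. NK or cytotoxic markers averaged 9.07 ± 0.38 in reperfused-MCAO, against 8.33 ± 0.36 in anesthesia. In the permanent comparison 2 of 6 neutrophil, 1 of 6 monocyte and 0 of 6 NK or cytotoxic markers were called. The part of these cells in the interleukin results was not tested.

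The choice of control changed some calls. Against naive rats, an alternative chosen after seeing the data, reperfused-MCAO kept 5 calls (Il22ra2 at 1.69, Il2rb at 0.76, Il3ra at 0.66, Il17ra at 0.64 and Il10ra at 0.39), beside 4.79% of all probe sets in either direction. Il6r was then 0.17 and Il36b 0.76, and neither was called. Permanent-MCAO had 3 calls against naive rats, Il22ra2 at 1.18, Il17ra at 0.44 and Il27ra at -0.56, beside 3.54% of all probe sets. The anesthesia group against naive rats gave 0 called members (0.821% of all probe sets). At an unadjusted p under 0.05 in limma it gave 1 member, beside 1517 of all 31042 probe sets. This was Il6r, at -0.42 with a 95% interval of -0.75 to -0.09. Il6r passed the call without anesthesia replicate 2 (-0.49) or without naive replicate 2 (-0.53).

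Sequence before the annotated start was read for the bright members. The RefSeq table for build GRCr8 held 12 of the 15. The 250 bases before the start that the table gives were searched on both strands for the STAT motif TTCNNNGAA and for GAGGAAG, a motif bound by the myeloid factor PU.1. Of the 12 windows, 3 lay wholly before the gene as annotated (Il10ra, Il18 and Il27ra), 4 reached partly into it and 5 lay wholly inside it (Il16, Il6r, Il6st, Il36b and Il15), where they precede an annotated start within the gene. The STAT motif was in 1 of the 12 windows, that of Il36b, which lies inside the gene, and GAGGAAG in 0. Of all 27457 windows in the table, 7.52% held the STAT motif and 10.1% held GAGGAAG. A match is only a run of letters. Windows are given 5′ to 3′ on the gene's strand for 2 receptor chains whose window lies before the gene, Il10ra (chr8:54474787-54475036, minus strand), called after reperfused-MCAO, and Il27ra (chr19:41014480-41014729, plus strand), called with tPA without MCAO. Neither holds a motif match, so no letters are in capitals.
Il10ra: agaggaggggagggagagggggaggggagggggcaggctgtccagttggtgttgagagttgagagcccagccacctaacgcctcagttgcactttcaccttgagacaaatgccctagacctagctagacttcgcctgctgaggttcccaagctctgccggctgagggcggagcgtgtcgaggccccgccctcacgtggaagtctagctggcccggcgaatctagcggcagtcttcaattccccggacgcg
Il27ra: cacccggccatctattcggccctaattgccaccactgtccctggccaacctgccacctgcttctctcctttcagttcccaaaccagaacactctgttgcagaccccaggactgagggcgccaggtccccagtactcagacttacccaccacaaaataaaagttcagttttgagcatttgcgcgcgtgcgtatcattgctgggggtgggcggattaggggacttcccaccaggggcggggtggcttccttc
The Il10ra window was 62.8% G or C and the Il27ra window 57.6%. Whether transcription starts at these annotated positions in blood was not tested.

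With tPA without MCAO, 7 members were called against anesthesia, all higher: Il27ra, Il6st, Il6r, Il18bp, Il16, Il17ra and Il2rg. Many genes were higher in this comparison, 9.15% of all probe sets and 18.8% of bright ones, beside 15.9% of the members and 40.0% of the bright members. The adjusted p was at most 0.05 for 6 of the 7, beside 12.5% of all probe sets in either direction. All 3 bright members of the gp130 group were called. The median log2 difference of the 15 bright members was 0.43, and that of all 44 was -0.01.

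Il27ra, the private chain of the IL-27 receptor, was 7.13, 7.59 and 7.94 with tPA without MCAO, against 6.45, 6.73 and 7.05 in anesthesia, with no overlap. The difference was 0.83 (SE 0.15; adjusted p 0.0104). Il6st encodes gp130, the chain shared by the receptors of IL-6, IL-11 and IL-27. It was 7.47, 7.77 and 8.25 with tPA without MCAO, against 6.71, 7.04 and 7.46 in anesthesia, again with no overlap, and a difference of 0.78 (SE 0.15; adjusted p 0.0145). The other 3 probe sets of Il6st gave differences of 0.62, 1.43 and 1.01, of which the first was not called.

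Il6r was 8.18, 8.47 and 8.69 with tPA without MCAO, against 7.65, 7.71 and 8.12 in anesthesia. The groups did not overlap, and the difference was 0.67 (SE 0.11; adjusted p 0.00743), the smallest adjusted p of the members here. Il16 was 9.09, 9.27 and 9.62 with tPA without MCAO, against 8.28, 8.66 and 9.17 in anesthesia, a difference of 0.66 (SE 0.15; adjusted p 0.0234). The ranges of Il16 met at the highest anesthesia rat.

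Il17ra was 10.86, 11.24 and 11.55 with tPA without MCAO, against 10.33, 10.53 and 11.11 in anesthesia, a difference of 0.63 (SE 0.15; adjusted p 0.0268), with 1 anesthesia rat inside the tPA range. Il2rg, the common gamma chain used by the receptors of IL-2, IL-4, IL-7, IL-9, IL-15 and IL-21, was 11.11, 11.42 and 11.69 with tPA without MCAO, against 10.51, 10.86 and 11.19 in anesthesia. Its difference was 0.54 (SE 0.13; adjusted p 0.0230), and the ranges overlapped slightly. Il18bp, the soluble protein that neutralises IL-18, was the dim member called, at 0.67 (adjusted p 0.0596). It was called in 2 of the 12 fits that each left out 1 rat.

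**Figure D4:**
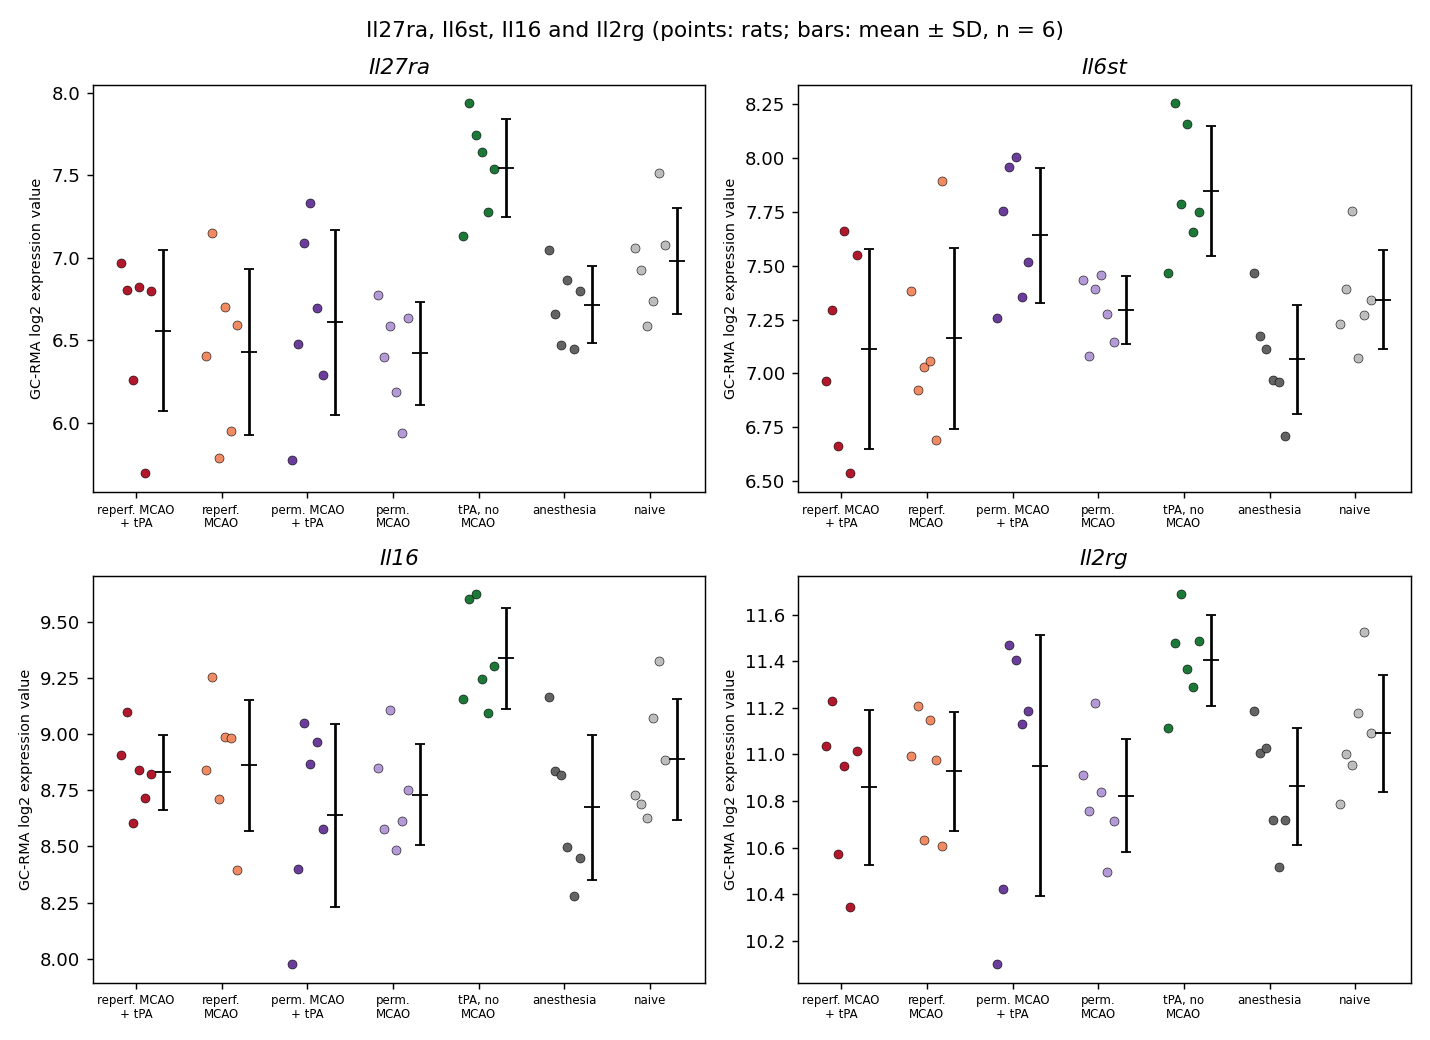
GC-RMA log2 expression values (vertical axes) of Il27ra, Il6st, Il16 and Il2rg in each rat (points), by group, with bars for mean ± SD (n = 6). Il27ra and Il6st in rats with tPA without MCAO (lowest 7.13 and 7.47) lie above all anesthesia rats (highest 7.05 and 7.46).

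In the same comparison all 6 T cell markers were called higher, with a mean of 11.46 ± 0.19 with tPA without MCAO and 10.62 ± 0.21 in anesthesia (SD, n = 6 each), and their ranges were 11.21 to 11.74 and 10.37 to 10.88. Of the 5 red cell precursor markers 3 were called lower (11.67 ± 0.87 with tPA without MCAO, 12.94 ± 0.17 in anesthesia), and 4 of 5 platelet markers were lower. Of the 6 basophil and eosinophil markers, 3 of them bright, 1 was called higher, and of the 3 B cell markers 0. The part of these cells in the result was not tested. With the hybridization control level as a covariate, 1 of the 7 calls was left, Il6r at 0.69, while Il27ra was 0.47, Il6st 0.45, Il17ra 0.56, Il2rg 0.37 and Il16 0.34. The control levels did not overlap between the groups, at 9.72 to 11.69 with tPA without MCAO and 11.79 to 12.37 in anesthesia. In this fit the control level and the group therefore cannot be told apart. Without the rat of lowest control level, 6 members were called. Against naive rats 3 were called, Il27ra at 0.56, Il6st at 0.50 and Il16 at 0.45, beside 5.19% of all probe sets in either direction.

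When tPA was given after MCAO, few members were called. In reperfused-MCAO, tPA was followed by 1 called member, Il3ra, which was lower (0.438% of all probe sets and 0.816% of bright ones were called lower). It was 3.93, 4.13 and 4.46 in reperfused-MCAO with tPA, against 4.12, 4.58 and 4.97 in reperfused-MCAO, so the ranges overlapped. The difference was -0.43 (SE 0.13; 95% interval -0.71 to -0.14), and the adjusted p was 0.542. The call was present in 2 of the 12 fits that each left out 1 rat. In permanent-MCAO, tPA was followed by 0 called members (0.322% of all probe sets). There 1 member, Il6st at 0.34, had an unadjusted p under 0.05 in limma, beside 717 of all 31042 probe sets. Without permanent-MCAO with tPA replicate 1, Il6st was called, at 0.42. Set against each other, the tPA responses of the 2 occlusions gave 0 called members (0.296% of all probe sets). At an unadjusted p under 0.05 in limma they gave 0, beside 782 of all 31042 probe sets.

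In reperfused-MCAO the interval of the tPA difference was wide for Il22ra2 and narrower for Il17ra, and neither gene was called. Il22ra2 was 6.60, 7.68 and 7.97 in reperfused-MCAO with tPA, against 6.84, 8.60 and 9.56 in reperfused-MCAO. The difference was -0.97, with a 95% interval of -1.94 to -0.0026 and an adjusted p of 0.542. In permanent-MCAO the tPA difference of Il22ra2 was -0.50, with an interval of -1.43 to 0.43. Il17ra was 10.90, 11.20 and 11.46 in reperfused-MCAO with tPA, against 11.24, 11.52 and 11.68 in reperfused-MCAO, a difference of -0.28 with an interval of -0.50 to -0.06. Single rats decided these calls: without reperfused-MCAO replicate 4 both genes were called lower, Il22ra2 at -1.28 and Il17ra at -0.33, and without reperfused-MCAO with tPA replicate 5 Il17ra was called, at -0.33. The neutrophil markers averaged 9.45 ± 0.44 in reperfused-MCAO with tPA and 10.18 ± 0.84 in reperfused-MCAO (SD, n = 6 each), and 0 of the 6 was called. Their part in these values was not tested.

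**Figure D5:**
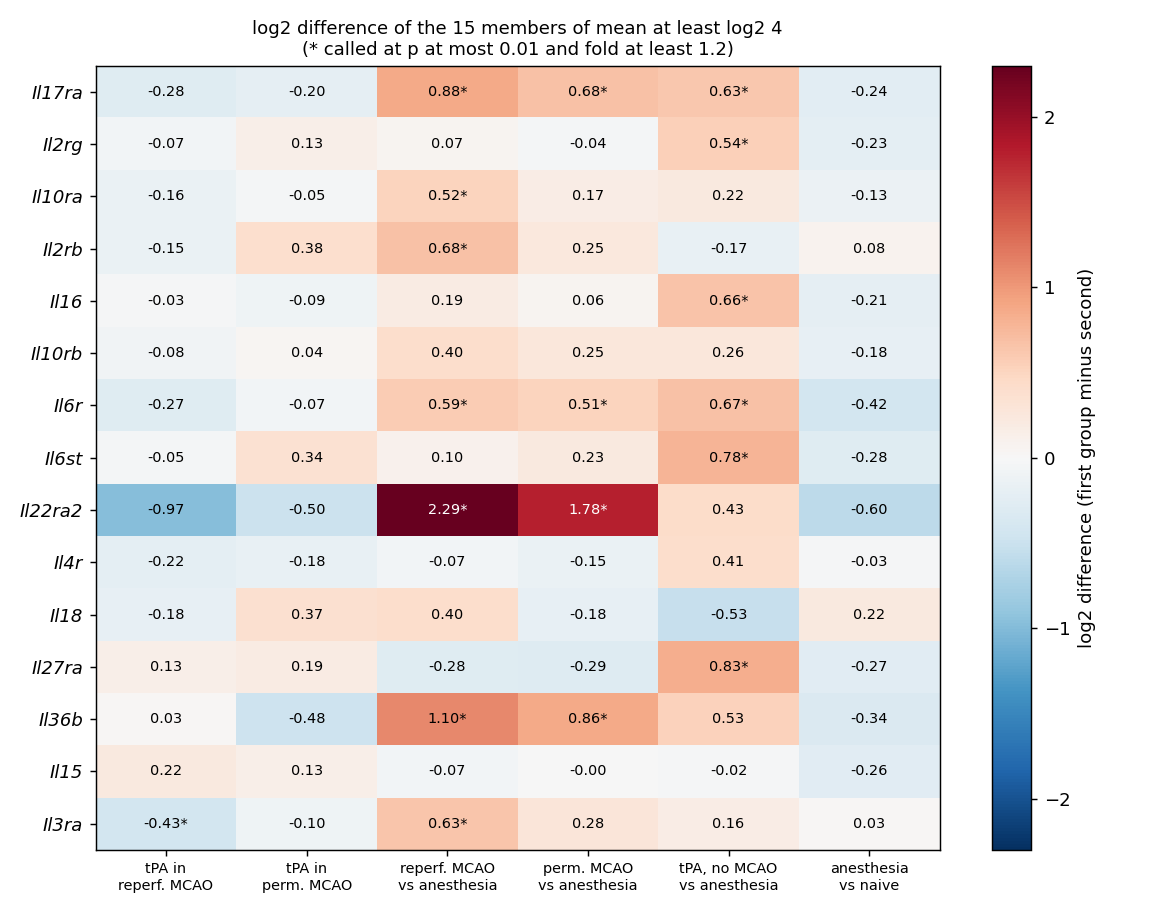
Log2 difference (colour and printed value) of the 15 bright members (rows) in 6 pairs of groups (columns), first group minus second, with a star where the gene was called at p at most 0.01 and a fold of at least 1.2. Stars stand in the 3 columns set against anesthesia and at Il3ra for tPA in reperfused-MCAO (-0.43).

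A model over all 42 rats with terms for tPA, stroke, anesthesia and their tPA by stroke interaction, called at p at most 0.05 and a fold of at least 1.2, gave the average effects. The tPA without MCAO rats were coded as anesthetized in it. The tPA effect, averaged over rats with and without MCAO, was called for 4 members, all higher, where 6.91% of all probe sets and 13.1% of bright ones were called higher. The adjusted p was at most 0.05 for 2 of them (4.36% of all probe sets). The 4 members were Il27ra at 0.49 (adjusted p 0.0325), Il6st at 0.46 (adjusted p 0.0247), Il16 at 0.30 and Il2rg at 0.29. The other probe sets of Il6st gave 0.24 (bright, not called), 0.76 and 0.66 (both dim, both called). With the 4 MCAO groups alone, an alternative chosen after seeing the data, none of these 4 members was called and Il16 was -0.062. There Il22ra2 (-0.74) and Il3ra (-0.26) were called lower, beside 2.61% of all probe sets in either direction. With tPA without MCAO coded as not anesthetized, 2 of the 4 were called, Il27ra at 0.36 and Il6st at 0.32. With the hybridization control level as a covariate 0 of the 4 were called, with Il6st at 0.28 and Il27ra at 0.20. Rats of tPA without MCAO had the lowest mean control level, so this covariate partly follows that group. For the same effect all 6 T cell markers were called higher and 4 of 5 red cell precursor markers lower, and their part in it was not tested.

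The stroke effect, averaged over rats with and without tPA, was called for 6 members, 4 higher and 2 lower, where 6.02% of all probe sets (12.5% of bright ones) were called higher and 9.39% (18.6%) lower. All 6 had an adjusted p at most 0.05, beside 7.86% of all probe sets. Il22ra2 had the largest effect, 1.45 (SE 0.25; adjusted p 0.000515), followed by Il2rb at 0.61 (adjusted p 0.00593), Il36b at 0.60 (adjusted p 0.0469) and Il17ra at 0.34 (adjusted p 0.0352). Il27ra was lower by a log2 difference of -0.63 (adjusted p 0.00402), and Il4r, the shared alpha chain of the IL-4 and IL-13 receptors, by -0.42 (adjusted p 0.0419). For the same effect all 6 T cell markers were called lower, and 5 of 6 NK or cytotoxic, 4 of 6 neutrophil and 4 of 5 platelet markers were called higher. The part of these cells in the stroke effect was not tested, and the surgery cannot be told apart from the occlusion in it.

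The lower calls of Il4r and Il27ra were lost when the tPA groups were left out. Il4r was 6.86, 7.08 and 7.54 in reperfused-MCAO rats, and permanent-MCAO rats lay at 6.52, 7.18 and 7.49, against 6.75, 7.23 and 7.81 in anesthesia, ranges that overlapped almost wholly. In tPA without MCAO its median was 7.58 and its highest rat 8.08. Without the tPA groups, an alternative chosen after seeing the data, Il4r was -0.11 and Il27ra -0.29 and neither was called, while 8 members were called higher, beside 11.4% of all probe sets in either direction.

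The tPA by stroke interaction, the tPA effect with MCAO minus that without, was called for 10 members, all negative, where 14.4% of all probe sets and 27.7% of bright ones were called negative. The adjusted p was at most 0.05 for 3 members (9.47% of all probe sets), Il6r at -0.85 (SE 0.18; adjusted p 0.00534), Il17ra at -0.87 (SE 0.21; adjusted p 0.0102) and Il16 at -0.73 (SE 0.20; adjusted p 0.0184). For each of these, tPA without MCAO rats were higher than anesthesia rats, and tPA was followed by smaller, negative differences after MCAO, of -0.27 and -0.07 for Il6r in reperfused-MCAO and permanent-MCAO. The other 7 were Il22ra2 (-1.17), Il18bp (-0.80), Il27ra (-0.67), Il6st (-0.63), Il4r (-0.61), Il2rg (-0.51) and Il3ra (-0.43). With the hybridization control level as a covariate, Il22ra2 (-1.50), Il6r (-0.75) and Il17ra (-0.72) were the members still called lower, and Il16 was -0.29. Here too the covariate partly follows the tPA without MCAO group. With tPA without MCAO coded as not anesthetized, 5 members were called, all negative. Of the markers, 5 of 6 for T cells were called negative and 4 of 5 for red cell precursors positive, and their part was not tested.

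Within a role some members were called and others were not, and the differences between members were not tested. Of the gp130 group, Il6r was called higher after both kinds of MCAO, while Il6st (0.10 and 0.23) and Il27ra (-0.28 and -0.29) were not called after reperfused-MCAO or permanent-MCAO. Of the IL-10 family, all 3 bright members had higher means after reperfused-MCAO at an unadjusted p under 0.05 in limma. Of the 13232 bright probe sets, 3522 had such a p in either direction. Il22ra2 and Il10ra were called, while Il10rb, the second chain of the IL-10 and IL-22 receptors, was not, at 0.40 (unadjusted p 0.0259). Of the common gamma chain group, Il2rb was called after reperfused-MCAO, while Il2rg was 0.07, Il4r -0.07 and Il15 -0.07. Il15, the cytokine bound by Il2rb and Il2rg, was called in no comparison. Il18, a cytokine activated by caspase-1, was not called in any comparison and had wide spreads, such as 6.59, 7.46 and 8.60 in reperfused-MCAO and 6.55, 7.14 and 7.67 in anesthesia.

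A list of genes around JAK and STAT signalling, none of them members, was read beside them. It held JAK kinases, STAT factors, SOCS inhibitors, Cish, Ptpn6 and the GM-CSF receptor chains Csf2ra and Csf2rb. Of the 18 listed, 17 had a probe set, and that of Csf2rb was dim (2.99). After reperfused-MCAO 3 of the 17 were called, all higher: Csf2ra, the GM-CSF receptor alpha chain, at 1.12 (adjusted p 0.0313), Jak2, a kinase of the IL-3 and gp130 receptors, at 0.93 (adjusted p 0.0263), and Tyk2 at 0.45 (adjusted p 0.112). After permanent-MCAO Jak2 alone was called, at 0.69 (adjusted p 0.338). With tPA without MCAO 5 were called, with Jak3 (0.87), Csf2ra (0.71) and Tyk2 (0.56) higher and Stat5b (-0.86) and Stat6 (-0.82) lower. In either direction, 6% of all probe sets and 13% of bright ones were called after reperfused-MCAO. The shares were 2.78% and 6.07% after permanent-MCAO, and 13.7% and 28.7% with tPA without MCAO. The median log2 difference of the 17 was 0.13, 0.03 and 0.25 in these 3 comparisons, against 0.03, -0.01 and 0.24 over all bright probe sets. When tPA was given after MCAO, 0 of this list were called in reperfused-MCAO (0.722% of all probe sets) or in permanent-MCAO (0.322%).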

How the data were processed

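Whole-blood RNA of each rat was hybridized to 1 Affymetrix Rat Genome array. The authors normalized the probe values with GC-RMA in Partek, and the deposited values are log2 expression values, 1 per probe set and array. No further normalization was applied. The 57 control probe sets were set aside, which left 31042. Genes were named from the platform annotation. Groups came from the labels, and the members, role lists and marker lists were chosen with earlier results of these data known. Comparisons were fitted in limma over all probe sets, pairs on their own 12 arrays, following the study's thresholds, with Benjamini-Hochberg adjustment over all probe sets and two-sided p-values. The fit was tested on simulated data. Values by rat are given for bright members called in a comparison, up to 4 of the highest and 4 of the lowest differences in each, with others added where a result turns on them. Alternatives were the test, array weights, an intensity trend, centring, quantile scaling, removal of dim probe sets, the hybridization control level, the fold limit, the anesthesia coding, a replicate block and leaving out each rat. Precision is limited by 6 rats a group. The replicates are separate rats. R 4.3.3 and limma 3.58.1 were used.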

Additional observations from a re-analysis of the deposited data

Results flagged for a closer look

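In 105 groups of 6 rats (15 bright members in 7 groups), 7 had 1 rat far from the other 5, by a gap that took up most of the group's range. Chance alone gives about 1 in 20. For Il2rb these were permanent-MCAO replicate 3 at 8.57 and naive replicate 2 at 8.99. For Il6r they were permanent-MCAO with tPA replicate 6 at 8.88 and anesthesia replicate 2 at 8.12. For Il4r they were permanent-MCAO with tPA replicate 1 at 5.72 and tPA without MCAO replicate 2 at 8.08, and for Il36b permanent-MCAO with tPA replicate 2 at 4.23. The tPA without MCAO replicate 2 array also had the lowest hybridization control level.

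The effect of tPA differed between rats with and without MCAO, by the interaction term, for Il17ra at -0.87 (adjusted p 0.0102), Il16 at -0.73 (adjusted p 0.0184) and Il6r at -0.85 (adjusted p 0.00534). With the hybridization control level as a covariate, Il16 was no longer called, at -0.29. That level was lowest on average in tPA without MCAO, a group this term rests on, so they are partly confounded.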

How the results depend on the processing

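Of 469 values of called members under other settings, 388 kept their call and 80 lost it, none of these with a reversed direction. The remaining 1 reversed (Il16, tPA effect with the 4 MCAO groups only, -0.062). Values for the variation over the 7 groups have no direction, so for them only the call was followed. Of 117 counts of called members, 100 stayed within 1.5 times the main count. The causes of the others were not tested. With the hybridization control level as a covariate, the tPA effect had 1 called member, a lower one that is none of the 4 called otherwise, the interaction 4 (10), tPA in reperfused-MCAO 0 (1), tPA without MCAO against anesthesia 1 (7) and the variation over the 7 groups 3 (9). The tPA without MCAO and anesthesia groups did not overlap in control level, so covariate and group cannot be told apart in their comparison. With a fold of at least 1.5 the tPA effect had 0 and tPA in reperfused-MCAO 0. With tPA without MCAO coded as not anesthetised, the tPA effect had 2 and the interaction 5. With the 4 MCAO groups only, the tPA effect had 2, both lower (2.61% of all probe sets in either direction). With naive rats as the control, tPA without MCAO had 3 (5.19% of all probe sets in either direction). The call of Il3ra for tPA in reperfused-MCAO was lost, giving 0, under the methods' test without shared variance, an intensity trend, quantile scaling and removal of dim probe sets. Centring the arrays on their median gave 17 members that varied over the 7 groups. This is more than the 15 bright members, so dim members were among them. The array medians, 3.05 to 3.26, lie at the level of dim probe sets. The share of all probe sets in this setting was not counted, so the 17 cannot be set against it.

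Leaving out each rat in turn gave 2 to 6 called members for the tPA effect (2 without anesthesia replicate 5, where Il2rg and Il16 lost the call), 6 to 9 for the stroke effect, 8 to 12 for the interaction and 5 to 10 for the variation over the 7 groups, with the 5 found without tPA without MCAO replicate 2. For the pairs it gave 0 to 2 for tPA in reperfused-MCAO, 0 to 1 for tPA in permanent-MCAO, 6 to 7 for tPA without MCAO, 6 to 7 for reperfused-MCAO, 3 to 5 for permanent-MCAO, 0 to 1 for anesthesia against naive and 0 to 0 for the difference of tPA effects. Tests on these 42 arrays had 6 rats a group, and in 27 of the 29 dim members no rat reached 4.

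Over all probe sets, scaling moved the share of higher calls: for the interaction 31.5% became 42.6% with centring and 43.0% with quantile scaling. With quantile scaling it became 58.8% (39.3% in the main fit) for tPA in reperfused-MCAO, 56.4% (66.6%) for tPA without MCAO and 42.3% (30.4%) for the difference of tPA effects. Smaller moves were those of the tPA effect, where 57.8% became 48.3% with centring and 48.8% with quantile scaling, so that the larger share turned to lower calls, and of the stroke effect, where 39.1% became 44.7% and 47.3%.

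The replicate numbers do not pair the rats: over 126 pairs of arrays with the same number, deviations from group means had a mean correlation of -0.03, 39 were above 0.1, and 7 of 42 arrays correlated best with their own number. With the replicate number as a block, the called members were 4 for the tPA effect, 6 for stroke, 10 for the interaction, 0 for tPA in reperfused-MCAO, 6 for tPA without MCAO, 7 for reperfused-MCAO, 4 for permanent-MCAO and 7 for the variation over groups.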
